A study of Marchantia polymorpha and Arabidopsis thaliana with 54 samples.

Results

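The 10 genes described here are Arabidopsis thaliana dehydrins and other cold-regulated (COR) genes: RD29A (AT5G52310), RD29B (AT5G52300), KIN1 (AT5G15960), KIN2 (AT5G15970), COR15A (AT2G42540), COR15B (AT2G42530), COR47 (AT1G20440), ERD10 (AT1G20450), RAB18 (AT5G66400) and LTI30 (AT3G50970). They were taken as a list of identifiers, 10 of the 27655 genes in the count table. No rule on measured values chose them, but earlier results of these data were known. All 10 passed the filter on low counts, as 22696 genes did. RNA-seq was run on whole seedlings, 7 days old, of 2 lines grown on agar with sucrose in continuous light. The eTK line carries knockout labels for HSFA1A, HSFA1B and HSFA1D, which encode heat shock transcription factors, and Col-0 is the wild type. Seedlings were either moved to 37 °C for 1 h (heat) or kept at 22 °C (control). There were 3 eTK heat, 6 eTK control, 3 Col-0 heat and 6 Col-0 control libraries. Replicates 4 to 6 of each control group carry the label batch 2, and all other libraries the label batch 1, so heat was measured in batch 1 only. No Arabidopsis seedling in these libraries was given abscisic acid (ABA) or cold, so the names of the genes as ABA- and cold-responsive could not be checked here. The labels do not say whether a library pooled seedlings or whether replicates were separate cultures, so the spread behind each p-value is that among these libraries and could be technical. Several comparisons share their control libraries, so their results are not independent of each other.

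Dehydrins are very hydrophilic proteins of the late embryogenesis abundant (LEA) class that build up when plant cells lose water, and COR47, ERD10, RAB18 and LTI30 belong to them. COR15A and COR15B encode LEA-type proteins of the chloroplast stroma known from freezing tolerance, KIN1 and KIN2 small alanine-rich proteins, and RD29A and RD29B large hydrophilic proteins of drying, salt and cold. In cold, CBF transcription factors bind the dehydration-responsive element (DRE) in the promoters of many such genes. In drought, ABA activates SnRK2 kinases, which act on bZIP factors of the ABF and ABI5 group that bind the ABA-responsive element (ABRE). DREB2A, a DRE-binding activator known from drought, is also known from heat.

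The genes include 4 pairs of neighbours. The 250 bases before the annotated start of 5 of these genes are shown, so that the elements named above can be set beside the levels of RD29A and RD29B, KIN1 and KIN2, and COR15A. Sequences and positions are from RefSeq's TAIR10.1 assembly, matched by locus identifier. Capitals mark the ABRE core ACGTG and the DRE core ACCGAC or GCCGAC, each searched on both strands, and sequences run 5′ to 3′ on the gene's strand. The window of RD29A is chr5:21240467-21240716 and that of RD29B chr5:21236771-21237020, both on the plus strand. The window of KIN1 is chr5:5209467-5209716 and that of KIN2 chr5:5211469-5211718, both on the plus strand, and that of COR15A is chr2:17712331-17712580 on the minus strand.
RD29A: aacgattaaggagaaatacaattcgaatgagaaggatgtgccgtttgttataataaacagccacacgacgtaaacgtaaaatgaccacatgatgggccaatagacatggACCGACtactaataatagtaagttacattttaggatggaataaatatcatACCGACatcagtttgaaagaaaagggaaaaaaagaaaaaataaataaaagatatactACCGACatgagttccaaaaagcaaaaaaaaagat
RD29B: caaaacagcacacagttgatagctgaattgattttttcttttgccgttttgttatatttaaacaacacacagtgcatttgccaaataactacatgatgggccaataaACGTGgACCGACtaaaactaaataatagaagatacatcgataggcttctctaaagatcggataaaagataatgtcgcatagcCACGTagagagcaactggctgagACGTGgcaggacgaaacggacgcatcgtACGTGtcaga
KIN1: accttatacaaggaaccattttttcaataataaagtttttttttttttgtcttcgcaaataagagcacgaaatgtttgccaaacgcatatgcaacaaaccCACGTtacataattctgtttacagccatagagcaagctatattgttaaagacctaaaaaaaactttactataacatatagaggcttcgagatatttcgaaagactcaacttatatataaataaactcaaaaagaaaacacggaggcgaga
KIN2: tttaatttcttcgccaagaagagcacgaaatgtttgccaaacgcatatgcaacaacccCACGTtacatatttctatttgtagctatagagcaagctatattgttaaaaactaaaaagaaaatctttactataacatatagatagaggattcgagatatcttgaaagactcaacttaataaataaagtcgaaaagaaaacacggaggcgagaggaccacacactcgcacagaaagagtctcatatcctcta
COR15A: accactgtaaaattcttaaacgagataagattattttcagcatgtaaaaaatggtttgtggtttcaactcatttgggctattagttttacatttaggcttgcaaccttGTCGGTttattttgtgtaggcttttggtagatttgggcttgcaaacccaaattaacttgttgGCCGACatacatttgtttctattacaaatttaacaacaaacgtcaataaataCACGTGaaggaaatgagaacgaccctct
The RD29A window held 3 DRE cores and no ABRE core. The RD29B window held 4 ABRE cores and 1 DRE core, and its DRE core lay beside an ABRE core, between bases -143 and -132 from the start. KIN1 and KIN2 held 1 ABRE core each. COR15A held 2 DRE cores and 2 overlapping ABRE cores, which together form a G-box (CACGTG). Of the windows not printed, that of RAB18 held 3 ABRE cores and that of LTI30 held 3 DRE cores, and those of COR15B, COR47 and ERD10 held neither. All but 7 bases of the COR15B window lie in the annotated COR15A gene, and the windows of RAB18 and LTI30 overlap the neighbouring genes AT5G66410 and AT3G50960. In all, 5 of the 10 genes had an ABRE core, as did 22.9% of 27443 windows of nuclear protein-coding genes, and 4 had a DRE core, as did 7.09%. A pair of heat shock element units facing each other (GAANNTTC or TTCNNGAA) was in 0 of the 10 windows and in 16.1% of all windows. The letters describe these windows only and were not tested for binding.

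The libraries held between 58370609 and 110875442 counts, and levels are CPM, counts scaled by library total and TMM factors. The heat treatment showed in the chaperones HSP101, HSP21, HSP90.1 and HSP70-4, whose summed level was 31.9 to 39.5 CPM in eTK heat and 12.0 to 16.1 CPM in eTK control, against 60786 to 75636 CPM in Col-0 heat and 31.3 to 91.1 CPM in Col-0 control. Of the targeted genes, HSFA1B was at 0.985 to 1.86 CPM in eTK control and 10.3 to 15.2 CPM in Col-0 control, and HSFA1D was at 5.05 to 6.54 CPM in eTK control and 13.7 to 15.5 CPM in Col-0 control. HSFA1A went against its label at the level of RNA, at 9.18 to 13.9 CPM in eTK control and 4.68 to 7.09 CPM in Col-0 control, which by itself does not show whether the gene is functional. The libraries are therefore called by the label eTK. Seedling tissue was checked by 5 shoot, 5 root and 4 guard cell marker genes, of which none was at 0 in all libraries of a group. In eTK control against Col-0 control, 3 of 5 shoot, 0 of 5 root and 1 of 4 guard cell markers were higher and 0, 1 and 0 lower (13.4% and 13.8% of all genes). With heat in eTK, 1 marker of each list was higher and 3 shoot, 3 root and 2 guard cell markers were lower (27.0% and 28.7% of all genes). With heat in Col-0, 1 shoot marker was higher and 3 markers of each list were lower (31.2% and 32.4% of all genes). Their part in the values of the 10 genes was not tested. In such bulk samples, fewer cells of a type and less RNA per cell cannot be told apart.

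**Figure D1:**
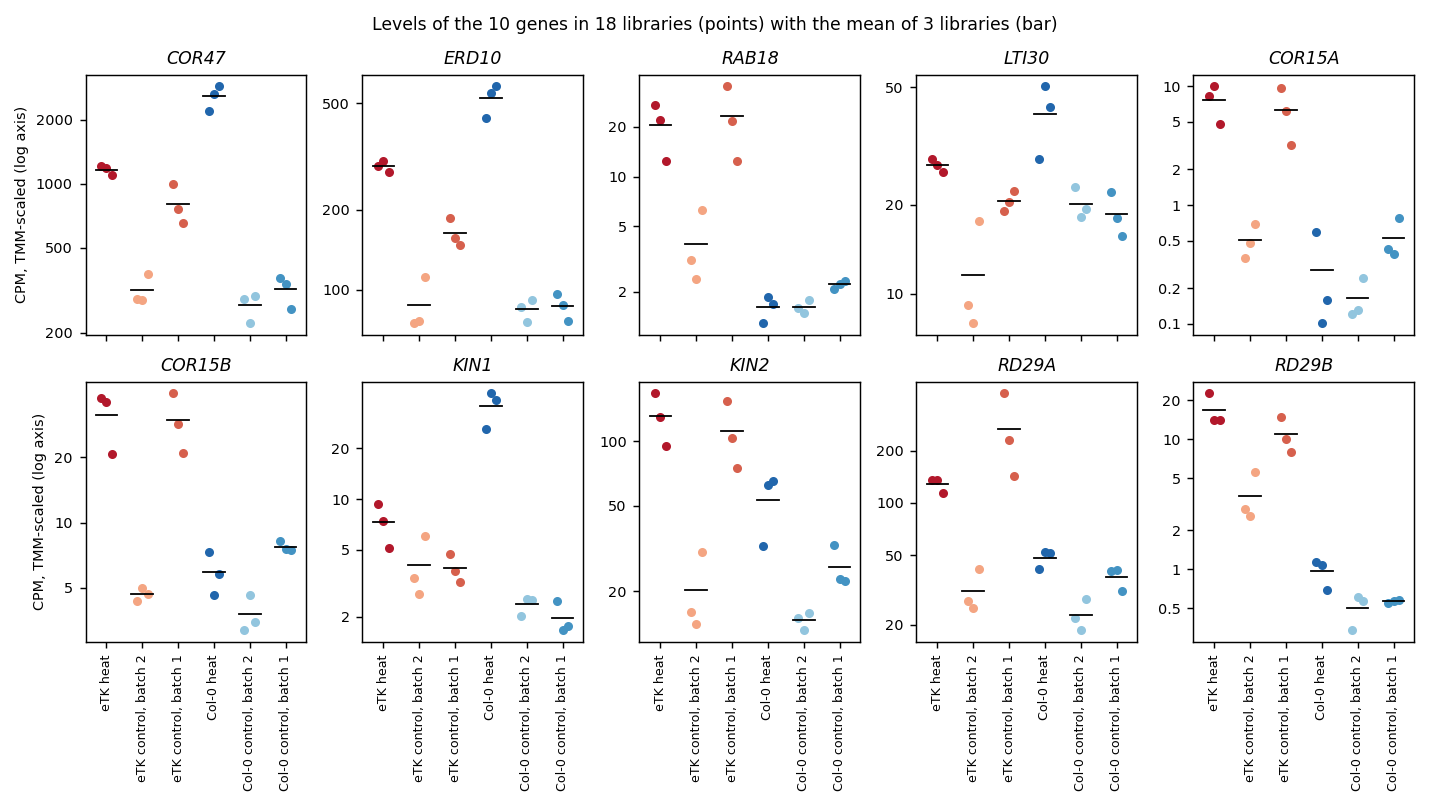
Levels of the 10 genes in CPM with TMM factors, on log axes that differ between panels, in each of 18 libraries (points) with the mean of the 3 libraries (bar). COR47, ERD10 and KIN1 were highest in Col-0 heat, where KIN1 reached 42.5 CPM, whereas RAB18, COR15A, COR15B, KIN2, RD29A and RD29B were highest in eTK, in heat or in the control libraries of batch 1.

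The genes spanned a wide range in untreated wild-type seedlings. Per kilobase of exon, COR47 averaged 126.8 ± 21.9 CPM and ERD10 52.8 ± 5.03 CPM in Col-0 control (SD, n = 6). KIN2 followed at 27.1 ± 9.69, LTI30 at 20.0 ± 2.83 and RD29A at 11.4 ± 3.53 CPM per kilobase. COR15B, KIN1 and RAB18 averaged 3.62 ± 1.41, 2.62 ± 0.484 and 1.77 ± 0.323 CPM per kilobase, and RD29B and COR15A were lowest at 0.247 ± 0.0450 and 0.220 ± 0.156 CPM per kilobase. Neighbours in this order whose libraries overlapped were KIN2 and LTI30 and COR15B and KIN1 in batch 2, and KIN1 and RAB18 and RD29B and COR15A in batch 1. In eTK control the first place was again COR47, at 136.5 ± 23.2 CPM per kilobase in batch 2 and 345.6 ± 74.9 in batch 1, while KIN2 came after ERD10 in batch 2 at 26.9 ± 11.8 and was next to COR47 in batch 1 at 148.3 ± 53.4 (SD, n = 3 each), where its libraries overlapped those of ERD10.

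Heat in Col-0 raised 4 of the 10 genes, namely KIN1, COR47, ERD10 and LTI30, and lowered 0. Over all genes, 31.2% were called higher and 32.4% called lower in this comparison (edgeR's quasi-likelihood test with a batch term, Benjamini-Hochberg adjusted p below 0.05). The median log2 fold change was 0.46 over the 10 genes and -0.04 over all genes tested. KIN1 had the largest log2 fold change of the 10, and the dehydrin neighbours COR47 and ERD10 followed.

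KIN1 was at 9.31, 7.42 and 5.14 CPM in eTK heat, against 3.42, 2.73 and 6.06 CPM in eTK control of batch 2 and 4.75, 3.76 and 3.23 CPM in batch 1. In Col-0 it was at 26.1, 42.5 and 38.8 CPM in heat, against 2.02, 2.55 and 2.54 CPM in control of batch 2 and 2.48, 1.68 and 1.77 CPM in batch 1. All Col-0 heat libraries lay above all other libraries, and the eTK heat libraries overlapped the eTK control libraries of batch 2. The log2 fold change with heat was 0.95 ± 0.25 in eTK (SE, adjusted p = 0.00382) and 4.13 ± 0.26 in Col-0 (adjusted p = 2.19e-10).

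COR47 was at 1216, 1185 and 1102 CPM in eTK heat, against 287, 284.5 and 379 CPM in eTK control of batch 2 and 993, 759 and 654 CPM in batch 1. In Col-0 its level was 2209, 2653 and 2872 CPM in heat, against 289, 222.5 and 296 CPM in control of batch 2 and 361, 339 and 258 CPM in batch 1. Heat and control libraries did not overlap in either line, the heat libraries lying above, as they did for 23.2% of all genes in eTK and 23.6% in Col-0, and the eTK control libraries of batch 2 lay below those of batch 1. The log2 fold change of COR47 with heat was 0.79 ± 0.22 in eTK (adjusted p = 0.00631) and 2.71 ± 0.24 in Col-0 (adjusted p = 2.43e-08).

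ERD10, the neighbouring dehydrin, showed the same order of groups. It was at 291.5, 305 and 276 CPM in eTK heat, against 75.3, 76.4 and 112 CPM in eTK control of batch 2 and 186.5, 156 and 148 CPM in batch 1. In Col-0 it was at 441, 546 and 579 CPM in heat, against 85.9, 75.6 and 91.9 CPM in control of batch 2 and 96.1, 87.8 and 76.8 CPM in batch 1. Again heat and control did not overlap in either line. Its log2 fold change with heat was 1.03 ± 0.18 in eTK (adjusted p = 0.000134) and 2.36 ± 0.20 in Col-0 (adjusted p = 8.92e-09).

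LTI30, a dehydrin of cold-treated tissue, was at 28.7, 27.3 and 25.8 CPM in eTK heat, against 9.16, 7.97 and 17.6 CPM in eTK control of batch 2 and 19.0, 20.5 and 22.2 CPM in batch 1. In Col-0 it was at 28.7, 50.4 and 42.8 CPM in heat, against 22.9, 18.1 and 19.4 CPM in control of batch 2 and 22.2, 18.1 and 15.7 CPM in batch 1. Its heat libraries lay above the controls in both lines, with a log2 fold change of 0.62 ± 0.26 in eTK, which did not pass (adjusted p = 0.0504), and 0.87 ± 0.27 in Col-0, which did (adjusted p = 0.00978). The interaction for LTI30, eTK response minus Col-0 response, was -0.25 (adjusted p = 0.65), and against controls of batch 1 it was -0.72 with a term per group and batch (adjusted p = 0.159) and -0.71 in a fit of the batch 1 libraries alone, where it passed (adjusted p = 0.0475). The Col-0 call was lost without Col-0 heat replicate 2 (log2 fold change 0.69, adjusted p = 0.0581). RAB18, also a dehydrin, did not pass with heat in either line, with log2 fold changes of 0.22 ± 0.44 in eTK and -1.07 ± 0.56 in Col-0. In Col-0 the other 5 genes did not pass either, at 0.58 ± 0.41 for KIN2, 0.35 ± 0.42 for RD29B, -0.34 ± 0.51 for RD29A, -0.82 ± 0.37 for COR15B and -1.25 ± 0.67 for COR15A. RD29A and RD29B nevertheless had all 3 heat libraries above all 6 controls in Col-0. The shared batch term gives both lines the same batch difference, but the test of line by batch, below, called RD29A, COR15B, COR47 and ERD10. Against controls of batch 1, with a term per group and batch, RD29A was at 0.36 ± 0.29 in Col-0 and COR15B at -0.38 ± 0.24, neither called.

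Heat libraries set against the control libraries of the same batch, in a fit with a term per group and batch, gave 5 genes higher and 0 lower in Col-0, the same 4 and KIN2. There, 31.3% of all genes were called higher and 32.0% lower. KIN2 had a log2 fold change of 1.04 ± 0.33 in that fit (adjusted p = 0.0118), and 0.58 ± 0.41 with the shared batch term (adjusted p = 0.234). The KIN2 call was lost without Col-0 heat replicate 3 (adjusted p = 0.0502). A fit of the batch 1 libraries alone called 6 genes higher and 0 lower in Col-0 (31.6% and 32.4% of all genes), the same 5 and RD29B at 0.78 (adjusted p = 0.0447). With library size as the only scaling, the median of all genes in Col-0 shifted to -0.75, with 8.20% called higher and 67.4% lower, and RD29B and KIN2 turned to log2 fold changes of -0.36 and -0.14, COR15A, COR15B and RAB18 were called lower, and LTI30 was not called at 0.16, so a rise or fall of these genes in Col-0 is relative to the bulk of the transcripts. KIN1, COR47 and ERD10 were called higher under that scaling too, at 3.41, 2.00 and 1.64.

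Heat in eTK raised 4 of the 10 genes, ERD10, KIN1, RD29B and COR47, and lowered 0, where 27.0% of all genes were called higher and 28.7% lower. The median log2 fold change was 0.60 over the 10 genes and -0.01 over all genes. RD29B, with a log2 fold change of 0.87 ± 0.32 (adjusted p = 0.027), was at 22.5, 14.2 and 14.1 CPM in eTK heat. Its controls in eTK were at 2.91, 2.55 and 5.59 CPM in batch 2 and 14.7, 10.1 and 8.00 CPM in batch 1, of which replicate 1 lay above the lower heat libraries. The RD29B call was lost without eTK control replicate 3 (adjusted p = 0.0621), without eTK heat replicate 1 (adjusted p = 0.162), and against batch 1 controls with a term per group and batch (0.63 ± 0.28, adjusted p = 0.0651), but not in a fit of the batch 1 libraries alone (0.63, adjusted p = 0.0273). Set against batch 1 controls with a term per group and batch, 3 genes were higher in eTK heat, KIN1 at 0.90 ± 0.28, ERD10 at 0.83 ± 0.15 and COR47 at 0.54 ± 0.17, and 1 was lower, RD29A at -1.06 ± 0.29 (adjusted p = 0.00618). In that fit 26.6% of all genes were higher and 28.4% lower. The batch 1 libraries alone gave 4 higher and 1 lower, RD29B being added (27.3% and 28.9% of all genes). The RD29A call was lost without eTK control replicate 1, the highest of its group (-0.54, adjusted p = 0.0596). The count fell to 2 without eTK control replicate 3, where KIN1 and COR47 were lost with adjusted p-values of 0.0513 and 0.0653, and KIN1 was also lost without eTK heat replicate 1 (adjusted p = 0.0651).

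**Figure D2:**
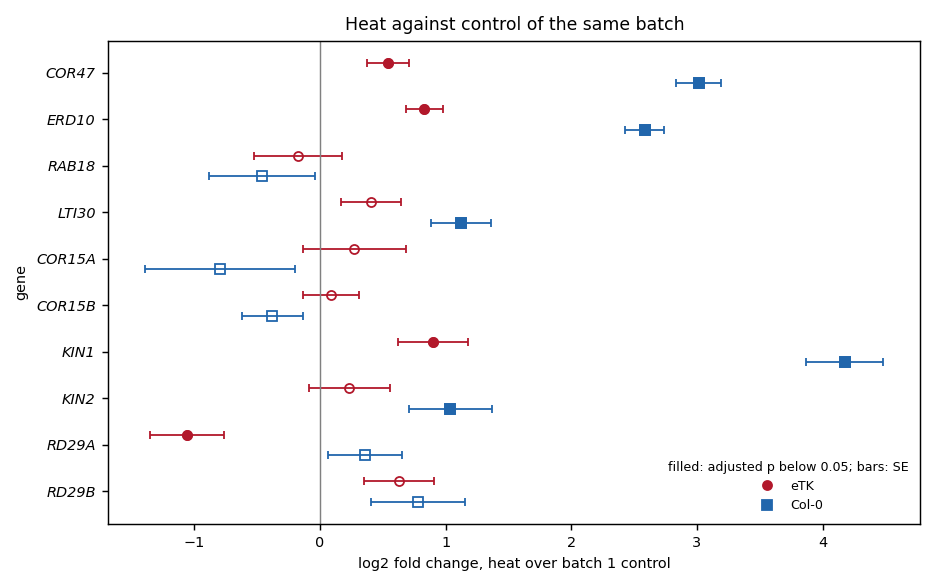
Log2 fold change (horizontal axis) of heat over the control libraries of batch 1 for each gene, with SE bars, in eTK (circles) and Col-0 (squares); filled symbols passed the test. COR47, ERD10 and KIN1 lie furthest to the right in Col-0 and below 1 in eTK, and RD29A is the gene on the negative side in eTK that passed, at -1.06.

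The difference between the heat responses was tested as an interaction, heat in eTK minus heat in Col-0. KIN1, COR47 and ERD10 had smaller responses in eTK, by -3.18 ± 0.34, -1.92 ± 0.31 and -1.33 ± 0.25 on the log2 scale (adjusted p = 1.08e-06, 0.000141 and 0.000686). These 3 were lower and 0 higher, where 12.6% of all genes were lower and 12.5% higher, and the median was -0.12 over the 10 genes and 0.00 over all genes. Against controls of batch 1, with a term per group and batch, the differences were -3.28 ± 0.40 for KIN1, -2.47 ± 0.24 for COR47 and -1.75 ± 0.21 for ERD10, and RD29A joined them at -1.42 ± 0.42 (adjusted p = 0.0237). In that fit 10.2% of all genes were lower and 9.59% higher. In a fit of the batch 1 libraries alone 5 were lower and 0 higher, LTI30 being added (10.2% and 9.70% of all genes). RD29A lost this call without Col-0 control replicate 3, eTK control replicate 1 or eTK heat replicate 3 (adjusted p = 0.0543 to 0.0574). Without eTK control replicate 1, the fit with a shared batch term called 6 genes, COR15A (2.15), COR15B (1.44) and RAB18 (1.59) being higher. Against controls of batch 1, with a term per group and batch, COR15A was at 1.06, COR15B at 0.47 and RAB18 at 0.29. None of these was called there, whichever library was left out. With library size as the only scaling 7 genes were called, 3 lower and 4 higher, where 4.51% of all genes were lower and 63.1% higher, the median of all genes shifting to 0.63, and RD29A and LTI30 changed sign to 0.38 and 0.38.

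Before any heat, the fit over both batches called most of these genes higher in eTK than in Col-0, a difference found mainly in batch 1. In control, 9 of the 10 genes were higher in eTK and 0 lower, where 13.4% of all genes were higher and 13.8% lower. The median log2 fold change was 1.23 over the 10 genes and 0.01 over all genes. RD29B was 12.1-fold, COR15A 7.43-fold, RAB18 5.20-fold and RD29A 3.13-fold higher in this fit over both batches. Within batch 2, with a term per group and batch, 2 of the 10 were higher and 1 lower (8.60% and 12.2% of all genes). RD29A was 1.37-fold higher there, which did not pass, and 7.05-fold higher within batch 1.

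RD29A and RD29B are the pair named for their response to drying. RD29A was at 27.3, 24.9 and 41.6 CPM in eTK control of batch 2 and 425.9, 229.5 and 143 CPM in batch 1, against 21.9, 18.7 and 27.9 CPM in Col-0 control of batch 2 and 40.7, 41.3 and 31.1 CPM in batch 1. RD29B was at 2.91, 2.55 and 5.59 CPM in eTK control of batch 2 and 14.7, 10.1 and 8.00 CPM in batch 1, against 0.341, 0.611 and 0.567 CPM in Col-0 control of batch 2 and 0.551, 0.570 and 0.579 CPM in batch 1. The eTK libraries of RD29B lay above Col-0 in each batch, as 16.6% of all genes did in batch 2 and 25.3% in batch 1, whereas those of RD29A overlapped Col-0 in batch 2. The log2 fold changes were 1.65 ± 0.39 for RD29A (adjusted p = 0.00407) and 3.60 ± 0.30 for RD29B (adjusted p = 5.51e-08).

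COR15A was near the limit of counting in wild-type seedlings, with 10 to 54 counts per Col-0 control library and 4 to 28 per Col-0 heat library. It was at 0.358, 0.483 and 0.693 CPM in eTK control of batch 2 and 9.72, 6.18 and 3.19 CPM in batch 1, against 0.122, 0.131 and 0.243 CPM in Col-0 control of batch 2 and 0.424, 0.386 and 0.781 CPM in batch 1. Its neighbour COR15B was at 4.36, 4.98 and 4.69 CPM in eTK control of batch 2 and 39.5, 28.5 and 20.9 CPM in batch 1, against 3.19, 4.60 and 3.48 CPM in Col-0 control of batch 2 and 8.20, 7.51 and 7.45 CPM in batch 1. COR15B of the lines overlapped in batch 2 and not in batch 1. The log2 fold changes were 2.89 ± 0.45 for COR15A (adjusted p = 9.05e-05) and 1.17 ± 0.27 for COR15B (adjusted p = 0.00338).

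RAB18, the dehydrin named for its response to ABA, was at 3.11, 2.39 and 6.28 CPM in eTK control of batch 2 and 35.2, 21.8 and 12.4 CPM in batch 1. In Col-0 control it was at 1.61, 1.48 and 1.78 CPM in batch 2 and 2.08, 2.25 and 2.34 CPM in batch 1, below every eTK control library, as 4.27% of all genes were. KIN2 was at 16.1, 14.1 and 30.3 CPM in eTK control of batch 2 and 154.5, 104 and 75.4 CPM in batch 1, against 15.0, 13.2 and 15.9 CPM in Col-0 control of batch 2 and 32.8, 22.8 and 22.3 CPM in batch 1. Its eTK and Col-0 libraries overlapped in batch 2. The log2 fold change was 2.38 ± 0.39 for RAB18 (adjusted p = 0.000183) and 1.29 ± 0.31 for KIN2 (adjusted p = 0.00506). Smaller differences were found for KIN1 (0.88 ± 0.20), COR47 (0.78 ± 0.18) and ERD10 (0.48 ± 0.15), and LTI30 did not pass (-0.32 ± 0.20, adjusted p = 0.277). ERD10 lost its call without Col-0 control replicate 2 (adjusted p = 0.0528) or replicate 3 (adjusted p = 0.0558).

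The difference between the lines was also taken within each batch. In batch 2, RD29B (2.86 ± 0.34) and RAB18 (1.28 ± 0.39) were higher and LTI30 was lower (-0.80 ± 0.24, adjusted p = 0.0266), where 8.60% of all genes were higher and 12.2% lower. The median of the 10 genes in batch 2 was 0.46. In batch 1, 9 of the 10 genes were higher in eTK and 0 lower (11.2% and 10.9% of all genes), with log2 fold changes from 0.91 for ERD10 to 4.27 for RD29B and a median of 2.02. Of the batch 2 calls, RAB18 lost its own without any of Col-0 control replicates 4, 5 and 6 or eTK control replicate 6 (adjusted p = 0.0516 to 0.169), and LTI30 without Col-0 control replicate 4 or eTK control replicates 4 or 5 (adjusted p = 0.103 to 0.122). The number of the 10 genes called in batch 2 was therefore 1, RD29B, without Col-0 control replicate 4, and it was 5, with KIN1 and COR15A added as higher, without Col-0 heat replicate 1. A fit of the 6 batch 2 libraries alone called 3 genes higher, RD29B, RAB18 and COR15A, and 0 lower, where 5.54% of all genes were higher and 10.6% lower. Within batch 1, KIN1 lost its call without Col-0 control replicate 2 or 3 or eTK control replicate 1 (adjusted p = 0.0784 to 0.0935), and 8 to 9 genes were called whichever library was left out.

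**Figure D3:**
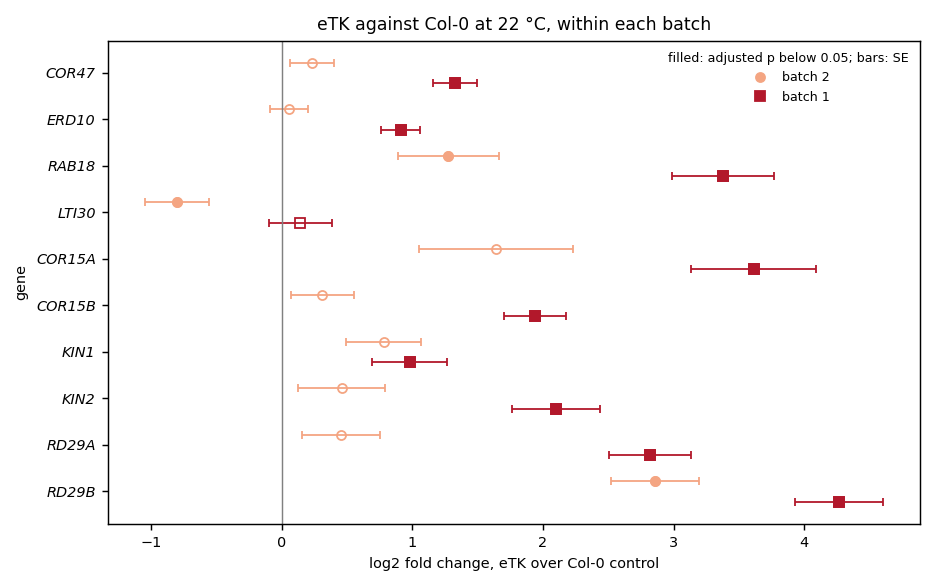
Log2 fold change (horizontal axis) of eTK over Col-0 control for each gene in batch 2 (circles) and batch 1 (squares), with SE bars; filled symbols passed the test. RD29B and RAB18 passed on the positive side in both batches, and the other 7 genes that passed in batch 1 lie nearer to 0 in batch 2.

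Levels of most of the genes differed between batches in eTK. In eTK control 9 of the 10 genes were lower in batch 2 than in batch 1 and 0 higher (13.1% and 11.7% of all genes), from -0.83 ± 0.24 for LTI30 to -3.63 ± 0.48 for COR15A. KIN1 was the exception at 0.06 ± 0.28. In Col-0 control 2 were lower, COR15A at -1.66 ± 0.58 and COR15B at -1.04 ± 0.24, and 0 higher (14.9% and 15.6% of all genes). The COR15A call in Col-0 was lost without Col-0 control replicate 1, 3, 4 or 5 (adjusted p = 0.056 to 0.146). LTI30 lost its call in eTK without eTK control replicate 3, 4 or 5 (adjusted p = 0.0571 to 0.0864).

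The test of line by batch, the batch difference in eTK minus that in Col-0, called 4 genes lower and 0 higher, RD29A (-2.36 ± 0.42, adjusted p = 0.0128), COR15B (-1.63 ± 0.34, adjusted p = 0.0207), COR47 (-1.09 ± 0.24, adjusted p = 0.0225) and ERD10 (-0.85 ± 0.21, adjusted p = 0.0402). Over all genes, 1.5% were lower and 0.736% higher. The count ranged from 1 without Col-0 control replicate 3 or eTK control replicate 1 or 4, through 2 without Col-0 control replicate 2 or 4 or eTK control replicate 5, to 8 without eTK control replicate 6, and RD29A alone of the 4 kept its call whichever library was left out. Within eTK control of batch 1, replicate 1 was the highest library and replicate 3 the lowest for 9 of the 10 genes, LTI30 excepted. Within batch 2, replicate 6 was the highest for 9, COR15B excepted. These counts have no share of all genes beside them, and the genes share each library's depth and scaling. The summed level of the 10 genes was 421 to 603 CPM in eTK control of batch 2 and 1089 to 1883 CPM in batch 1. In the same libraries the 3 light-harvesting genes among the 5 shoot markers were lower in batch 2, LHCB1.1 at -3.97 ± 0.18 in eTK and -3.65 ± 0.18 in Col-0. The Rubisco small subunit genes RBCS1A (0.47 ± 0.13) and RBCS3B (0.53 ± 0.13) were higher in batch 2 in eTK and did not pass in Col-0 (-0.01 and 0.12). The 5 markers summed to 19038 to 20052 CPM in eTK control of batch 2 and 29576 to 31163 CPM in batch 1. The part of what differed between batches in the result was not tested.

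Marker genes of seeds also moved, with the line and with heat in Col-0. The 6 dry seed and embryo markers were OLEO1, CRA1, SESA1, SESA3, EM1 and EM6. They summed to 5.84 to 42.9 CPM in eTK control and 0.275 to 2.66 CPM in Col-0 control. In control, 4 of 6 were higher in eTK and 0 lower (13.4% and 13.8% of all genes). Within batches, 1 of the 6 was higher in batch 2 and 4 in batch 1 (8.60% and 11.2% of all genes). The medians were 1.94 in batch 2 and 4.18 in batch 1, and none of the 6 passed the test of line by batch. In heat they summed to 9.04 to 26.2 CPM in eTK and 0.238 to 58.9 CPM in Col-0. None of the 6 was at 0 in all libraries of a group. With heat in Col-0, 4 of the 6 were higher and 0 lower (31.2% and 32.4% of all genes), with a median of 3.34. With heat in eTK, 1 was higher and 0 lower (27.0% and 28.7%). By the interaction, 3 were lower and 0 higher (12.6% and 12.5%). In eTK heat against Col-0 heat, 2 of the markers were higher and 1 lower (23.3% and 23.1%), with a median of -0.93. Their part in the result was not tested. EM1 and EM6 are themselves LEA genes that respond to ABA.

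After heat the lines differed in opposite directions for different genes. COR15A, RD29B, RAB18, COR15B, RD29A and KIN2 were higher in eTK heat than in Col-0 heat, 6 genes, and KIN1, COR47 and ERD10 were lower, 3 genes, where 23.3% of all genes were higher and 23.1% lower. The median log2 fold change was 1.35 over the 10 genes and 0.01 over all genes, and the libraries of the lines did not overlap for any of the 9, nor for 51.1% of all genes. COR15A was at 8.24, 9.97 and 4.77 CPM in eTK heat, against 0.589, 0.102 and 0.158 CPM in Col-0 heat, a log2 fold change of 4.68 ± 0.64 (adjusted p = 1.24e-05). RAB18 was at 27.1, 21.9 and 12.5 CPM in eTK heat, against 1.30, 1.87 and 1.69 CPM in Col-0 heat (3.67 ± 0.57, adjusted p = 5.7e-05). RD29B had 1.14, 1.08 and 0.686 CPM in Col-0 heat beside the eTK heat values given above (4.12 ± 0.42, adjusted p = 3.32e-07).

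COR15B was at 37.7, 35.9 and 20.8 CPM in eTK heat, against 7.34, 4.61 and 5.81 CPM in Col-0 heat (2.41 ± 0.38, adjusted p = 6.77e-05). RD29A was at 135, 135 and 114 CPM in eTK heat, against 41.8, 52.3 and 51.2 CPM in Col-0 heat (1.40 ± 0.51, adjusted p = 0.0331). KIN2 was at 167, 130.3 and 94.9 CPM in eTK heat, against 32.4, 62.3 and 65.4 CPM in Col-0 heat (1.29 ± 0.43, adjusted p = 0.0202). With the shared batch term, the RD29A call was the weakest of these. It was lost without any 1 of 5 of the 6 heat libraries, eTK replicate 3 excepted (adjusted p = 0.0631 to 0.112). KIN2 was lost there without replicate 1 of either line (adjusted p = 0.0717 to 0.101). With a term per group and batch, RD29A was at 1.40 ± 0.30 (adjusted p = 0.00113) and KIN2 at 1.29 ± 0.33 (adjusted p = 0.0041). A fit of the batch 1 libraries alone gave adjusted p = 0.00164 for RD29A and 0.00408 for KIN2.

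On the other side, KIN1 was lower in eTK heat, at -2.30 ± 0.28 (adjusted p = 2.51e-06), COR47 by -1.14 ± 0.25 (adjusted p = 0.00128) and ERD10 by -0.84 ± 0.21 (adjusted p = 0.00272). LTI30 did not pass at -0.57 ± 0.29 (adjusted p = 0.111), but it did in a fit of the batch 1 libraries alone (-0.56, adjusted p = 0.0127), which called 6 genes higher and 4 lower (24.8% and 24.4% of all genes). With library size as the only scaling the median of all genes shifted to 0.64, with 67.3% called higher and 7.35% lower, COR47 and ERD10 were no longer called at -0.51 and -0.21, and LTI30 turned to 0.06, while KIN1 was called lower at -1.66. In eTK heat, replicate 3 was the lowest library for all 10 genes, a count without the share of all genes beside it.

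Partners of a pair lie head to tail on the same strand, 7 bases apart for COR15A and COR15B, 892 for KIN1 and KIN2, 1029 for COR47 and ERD10 and 1185 for RD29A and RD29B. KIN1 and KIN2 shared 10 exonic stretches of 50 bases, 1.28% of those of KIN1 and 1.43% of those of KIN2, so reads from these could be assigned to either, and the other 3 pairs shared 0. COR15B and RAB18 overlap a gene on the opposite strand, and the strand setting of the counting was not given in the sources used here. The ratio of partners within a library was compared by exact two-sided permutation tests, 12 in all, with Benjamini-Hochberg adjustment over them, of pairs picked with the values known. These tests take no account of batch, and the heat libraries are all of batch 1.

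The KIN1 to KIN2 ratio was 0.594 to 0.806 in Col-0 heat and 0.0736 to 0.193 in Col-0 control, a difference of 2.64 on the log2 scale (exact permutation p = 0.0238, the smallest that 3 against 6 libraries allow, adjusted 0.0714), and of 3.18 within batch 1. In eTK it was 0.0542 to 0.0570 in heat and 0.0308 to 0.213 in control, where the batches stood apart at 0.193 to 0.213 in batch 2 and 0.0308 to 0.0428 in batch 1, so that the log2 difference with heat was -0.62 over both batches (exact permutation p = 0.476, adjusted 0.635) and 0.62 within batch 1, where every heat library lay above every control. The RD29A to RD29B ratio was 7.44 to 28.9 in eTK control and 30.6 to 73.9 in Col-0 control, without overlap, a log2 difference of -1.96 (exact permutation p = 0.00216, the smallest that 6 against 6 allow, adjusted 0.0259), and -1.54 within batch 1. COR15A to COR15B was 0.0821 to 0.246 in eTK control and 0.0284 to 0.105 in Col-0 control, a log2 difference of 1.47 (exact permutation p = 0.00649, adjusted 0.0389), and 1.62 within batch 1. COR47 to ERD10 was 3.39 to 5.32 in eTK control and 2.94 to 3.86 in Col-0 control. The log2 difference was 0.30 (exact permutation p = 0.0368, adjusted 0.0883), and 0.41 within batch 1. In Col-0 heat the COR47 to ERD10 ratio was 4.86 to 5.01, without overlap with Col-0 control. That log2 difference was 0.54 (exact permutation p = 0.0238, adjusted 0.0714), and 0.44 within batch 1. The remaining permutation tests gave adjusted p-values of 0.19 to 0.786.

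**Figure D4:**
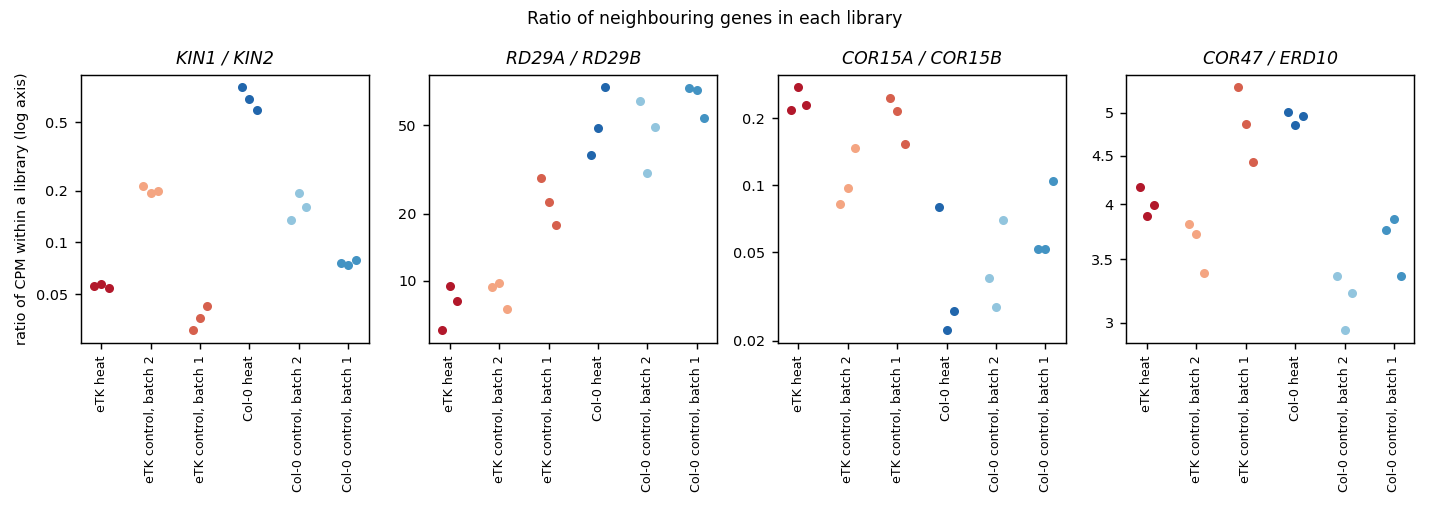
Ratio of CPM of neighbouring genes within each of 18 libraries, on log axes, by line, treatment and batch. The KIN1 to KIN2 ratio is highest in Col-0 heat, at 0.594 to 0.806, and the RD29A to RD29B ratio is lower in every eTK control library, at 7.44 to 28.9, than in every Col-0 control library.

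Of the 8 activators, ICE1 and the CBF and DREB2 factors, DREB2A had the largest log2 fold change with heat in both lines. DREB2A was at 33.5 to 36.5 CPM in eTK heat and 2.15 to 5.10 CPM in eTK control, against 2023 to 2295 CPM in Col-0 heat and 4.57 to 6.96 CPM in Col-0 control, log2 fold changes of 3.38 ± 0.21 in eTK and 8.46 ± 0.26 in Col-0 and an interaction of -5.08 ± 0.31. DREB2B (-0.10 in eTK, 2.87 in Col-0) and DREB2C (0.19 in eTK, 2.18 in Col-0) rose in Col-0 and did not pass in eTK, and both had smaller responses in eTK by the interaction, at -2.96 for DREB2B. CBF2 rose in both lines, by 2.93 ± 0.24 in eTK and 2.59 ± 0.25 in Col-0, and CBF1 rose in eTK (1.24 ± 0.46) and did not pass in Col-0 (-0.58 ± 0.59). CBF4, with at most 6 counts in any control library, was called higher with heat in both lines. CBF3 did not pass in either line, and ICE1, the activator upstream of CBF3, fell by 0.46 in eTK and by 0.61 in Col-0. Of the 8 activators, 4 were higher and 1 lower in eTK heat, and 5 higher and 1 lower in Col-0 heat, set against the shares of all genes given for these comparisons (27.0% and 28.7% in eTK, 31.2% and 32.4% in Col-0). The interaction did not pass for CBF1 (1.83, adjusted p = 0.0761, and 1.75, adjusted p = 0.111, against controls of batch 1).

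Before heat, CBF1, CBF2 and CBF3 were higher in eTK control by 1.88 ± 0.45, 1.39 ± 0.22 and 1.74 ± 0.46, and DREB2A and DREB2B were lower, at -0.89 ± 0.18 and -0.29 ± 0.10, while DREB2C (-0.44), CBF4 (2.22) and ICE1 (-0.05) did not pass. Within batch 2, 0 of the 8 activators were higher and 2 lower, DREB2A and DREB2C (8.60% and 12.2% of all genes). Within batch 1, 3 were higher and 0 lower, CBF1, CBF2 and CBF3 (11.2% and 10.9% of all genes). CBF1 and CBF2 were lower in batch 2, at -4.68 and -3.17 in eTK control and by -4.19 and -2.62 in Col-0 control. CBF3 was lower in batch 2 in eTK control (-3.54) and did not pass in Col-0 control (-1.41). CBF3 was at 0.201 to 0.287 CPM in eTK control of batch 2 and 1.71 to 5.25 CPM in batch 1, against 0.0244 to 0.351 CPM in Col-0 control of batch 2 and 0.420 to 0.545 CPM in batch 1.

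Among the kinases and bZIP factors of the ABA pathway, SNRK2.3 rose with heat in Col-0 (1.49 ± 0.10) and did not pass in eTK (-0.01 ± 0.10), an interaction of -1.50 ± 0.14, and OST1 was higher in eTK control by 0.30 ± 0.06 and SNRK2.2 lower, at -0.43 ± 0.08. Of the 5 bZIP factors, 1 was higher in eTK control, ABF3 at 0.46 ± 0.09, where 13.4% of all genes were higher. Within batches, 0 of the 5 bZIP factors were higher in batch 2 and 3 in batch 1 (8.60% and 11.2% of all genes). ABF3 did not pass in batch 2 (0.30 ± 0.11, adjusted p = 0.0709) and did in batch 1 (0.63 ± 0.11). OST1 did not pass in batch 2 either (0.25 ± 0.09, adjusted p = 0.0551) and did in batch 1 (0.36 ± 0.09), and SNRK2.2 was lower in both. With heat ABF3 rose by 1.26 in eTK and 0.93 in Col-0, and ABI5 fell by 1.46 in eTK and by 2.11 in Col-0.

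Other ABA-responsive genes were mostly higher in eTK, as 13 of 16 tested were in control, against 1 lower, and 12 were in heat, against 0 lower (of all genes, 13.4% were higher and 13.8% lower in control, and 23.3% and 23.1% in heat). The largest differences in control were LEA7 (3.59 ± 0.36) and TSPO (3.56 ± 0.43), and the gene on the other side, named after its value was seen, was LEA14 (-0.60 ± 0.11). Within batches, 11 of 16 were higher and 0 lower in batch 2 (8.60% and 12.2% of all genes), and 11 higher and 1 lower in batch 1 (11.2% and 10.9%), with medians of 1.14 in batch 2 and 1.76 in batch 1. Heat raised 10 of the 16 in eTK, led by the phosphatase genes HAI2 (3.33 ± 0.42) and HAI1 (3.00 ± 0.22), and 7 in Col-0, led by HAI2 (3.08 ± 0.50) and LEA7 (1.87 ± 0.48), where 27.0% of all genes were higher in eTK and 31.2% in Col-0. Among them, 4 had larger responses in eTK by the interaction and 0 smaller (12.5% and 12.6% of all genes), led by HAI1 (1.41 ± 0.30) and AFP1 (0.87 ± 0.22).

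The 6 other cold-regulated genes were higher in eTK control in 4 cases and lower in 0 (13.4% and 13.8% of all genes), led by COR413IM1 (1.5 ± 0.26) and COR413-PM1 (0.54 ± 0.13), which encode membrane proteins of the cold response. With heat 1 was higher and 3 lower in eTK, led by the galactinol synthase gene GOLS3 (-1.14 ± 0.47) and COR413-PM1 (-0.63 ± 0.17), and 0 higher and 3 lower in Col-0, led by GOLS3 (-1.82 ± 0.54) and COR413IM1 (-1.10 ± 0.36). Of all genes, 28.7% were lower in eTK and 32.4% in Col-0. All 6 were lower in batch 2 in eTK control, led by GOLS3 (-2.61) and COR413IM1 (-2.15), and 5 of 6 in Col-0 control, led by COR27 (-2.36) and COR413IM1 (-1.66), where 13.1% of all genes were lower in eTK and 14.9% in Col-0.

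Of the 6 other dehydrins, 4 were higher in eTK control and 0 lower (13.4% and 13.8% of all genes). ERD14, at 269.6 to 623 CPM in eTK control and 197 to 279 CPM in Col-0 control, was higher by 0.80 ± 0.15, and XERO1, at 31 to 97 counts per eTK control library and 2 to 12 per Col-0 control library, by 3.05 ± 0.43. LEA (AT2G21490) had 8 to 29 counts in eTK control and 0 to 5 in Col-0 control, and AT4G39130 had 5 to 18 in eTK control and 0 to 3 in Col-0 control, so both were called higher on few counts. HIRD11 (-0.09) and AT4G38410 (0.30) did not pass. With heat, LEA rose in both lines, by 2.68 in eTK and 2.59 in Col-0, the Col-0 heat libraries holding 2 to 12 counts, ERD14 rose in Col-0 (0.82) and did not pass in eTK (0.37), and HIRD11 fell by 0.42 in eTK and did not pass in Col-0 (-0.15). XERO1 (0.16 in eTK, 0.97 in Col-0) and AT4G38410 (0.40 in eTK, 0.02 in Col-0) did not pass in either line. AT4G39130 had no count in Col-0 heat, and no fold change with heat is given for it. With the shared batch term none of the 6 passed the interaction, and against controls of batch 1 with a term per group and batch 1 did, ERD14 with a smaller response in eTK (-0.77 ± 0.25, adjusted p = 0.0353, and -0.45, adjusted p = 0.208, with the shared batch term).

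**Figure D5:**
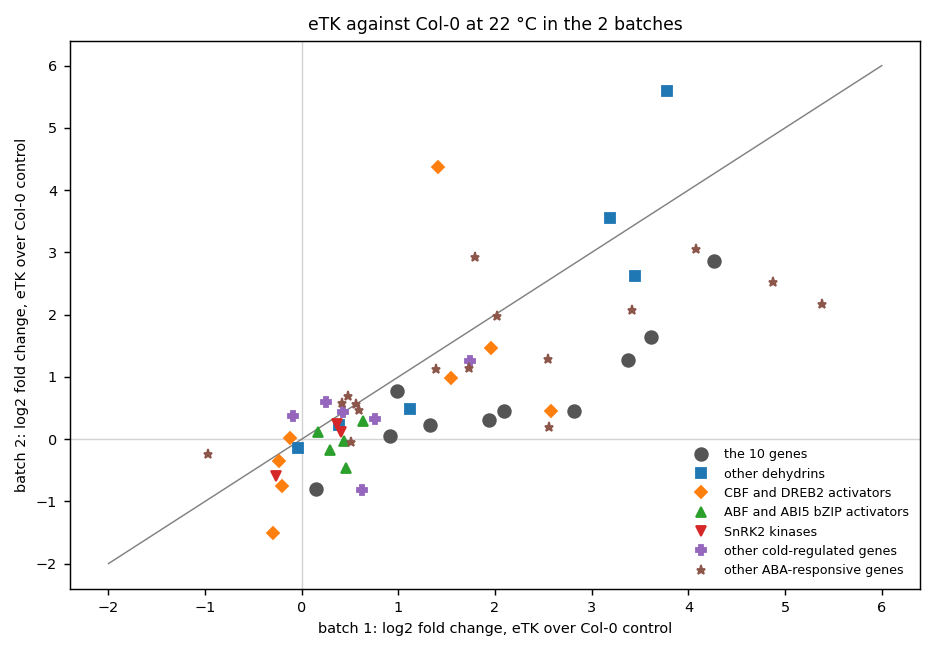
Log2 fold change of eTK over Col-0 control in batch 1 (horizontal axis) and batch 2 (vertical axis) for the 10 genes and 6 lists of the pathway (symbols), with a line where both are equal. The 10 genes lie below the line, with medians of 0.46 in batch 2 and 2.02 in batch 1, and the other ABA-responsive genes have medians of 1.14 in batch 2 and 1.76 in batch 1.

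Likeness of pattern was measured as the root mean square difference of centred log2 levels over the 6 means by group and batch, among 15589 genes of at least 5 CPM on average. Among the 10 themselves, COR47 and ERD10 were nearest to each other at 0.23, RD29A and COR15B at 0.37, and COR15A was nearest to RAB18 at 0.47. KIN1 was nearest to COR47 at 0.54 and lay at 1.39 from its neighbour KIN2. Outside the 10, HIS1-3, a linker histone gene, was nearest to RD29A (0.46), AT3G02480 to RD29B (0.44) and RAB18 (0.52), AT4G13620, annotated as a DREB-type factor, to KIN1 (0.28) and DYL1 to KIN2 (0.40). COR413IM1 was nearest to COR15A (0.72) and COR15B (0.30), CDF1 to COR47 (0.35), Tic20-IV to ERD10 (0.26) and AT2G22122 to LTI30 (0.14). These are descriptions over 6 means from 18 libraries with shared depth and scaling.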

How the data were processed

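RNA of whole seedlings was sequenced, per the labels' protocols. For 18 Arabidopsis thaliana libraries the authors deposited raw read counts per gene in 1 table. Tools listed in the submitters' processing notes are STAR 2.7.9a, fastp 0.24.0, Subread 2.0.6 and featureCounts. Build, annotation, strand setting and treatment of multiply mapped reads are not given in the sources used here. Of non-zero counts, 75.4% to 83.3% were even, so mates may have been counted singly. The other 36 of 54 samples of the series, of another species, were not analysed here.

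From the counts, edgeR 4.0.16 in R 4.3.3 was used with filterByExpr, TMM factors and robust quasi-likelihood fits to all 18 libraries. The main fit had a term per group and a shared batch term. A second fit had a term per group and batch, for comparisons of batches and within a batch. A call needed an adjusted p (Benjamini-Hochberg, over all 22696 genes tested) below 0.05. An SE is the size of the log2 fold change over the root of its F statistic. Totals of 58370609 to 110875442 counts leave little counting error except for the rarest transcripts. All 36 replicate pairs differed beyond sampling noise (chi-square per degree of freedom of at least 7.33). The main fit was tested on simulated data with genes changed in eTK heat and no batch differences. The second fit, the interaction and the comparisons of lines or batches were not tested in this way. Alternatives were median-ratio factors, library size alone, no filter, DESeq2 1.42.0, no batch term, a replicate block, single batches, halved counts, a 2-fold threshold, and leaving out each library.

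The 10 genes and all lists were chosen with earlier results of these data known. Named genes are the 10, the targeted genes, all CBF and DREB2 activators and other dehydrins, at most 2 called genes of each other list per comparison with the largest change, and the gene nearest in pattern to each of the 10, from log2 of CPM plus 0.1. LTP4 did not pass the filter. Positions are from TAIR10.1, which matched 27445 of 27655 identifiers by locus tag, and the files hold no coordinates.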

Additional observations from a re-analysis of the deposited data

Results flagged for a closer look

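RD29B in Col-0 control had 1 library that stood apart, replicate 4, the lowest at 0.341 CPM. It was the only such library among 20 groups of 6 libraries examined (the 10 genes in eTK control and in Col-0 control). Chance would give about 1 in 20 if the groups were independent, but they share libraries. Each group spans both batches, so where the batches differ a library apart within its batch could be missed.

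The heat responses of the lines differed by the interaction test for KIN1 (-3.18), COR47 (-1.92) and ERD10 (-1.33), all smaller in eTK on the log2 scale.

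The difference between batch 2 and batch 1 in control differed between eTK and Col-0 for RD29A (-2.36), COR15B (-1.63), COR47 (-1.09) and ERD10 (-0.85), all further below 0 in eTK.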

How the results depend on the processing

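Of 2080 fold changes recomputed for the 10 genes, 1932 kept their direction and side of the threshold, 55 were no longer called, 58 were newly called and 35 changed sign. The count of called genes moved by over 1.5 times in these cases: heat in eTK to 1 with a 2-fold threshold, the interaction to 7 with library size alone and 5 in batch 1 alone, eTK against Col-0 in control to 3 in batch 2 alone, batch 2 against batch 1 in Col-0 control to 1 with halved counts, and line by batch to 7 with DESeq2. Leaving out 1 library gave 3 to 6 for the interaction, 1 to 3 for the batches in Col-0 control and 1 to 8 for line by batch. Against controls of the same batch, an alternative chosen after seeing the data, it gave 2 to 6 for heat in eTK and 1 to 5 for eTK against Col-0 in batch 2.

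Numbers gave no clear pairing of the samples over both batches: 3 of 21 same-numbered pairs of libraries had deviations correlated above 0.1, within -0.217 to 0.232. In batch 2 the same-numbered pairs were at 0.027, 0.142 and 0.232, and the differently numbered pairs ran from -0.218 to 0.114. With a replicate block in place of batch, 4 genes were called for heat in eTK, 4 for heat in Col-0, 3 for the interaction, 9 for eTK against Col-0 in control and 8 in heat.

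Signs changed as follows, all without a call on either side, and the cause was not tested. Heat in Col-0 gave RD29A 0.68 with no batch term, 0.36 with a term per group and batch and 0.36 in batch 1 alone, RD29B -0.36 and KIN2 -0.14 with library size alone, and COR15B 0.045 with no batch term. Heat in eTK gave RAB18 -0.17 with a term per group and batch, -0.17 in batch 1 alone and -0.028 without eTK heat replicate 1 (-0.028 to 0.69 over all libraries left out). The interaction gave RD29A 0.38 with library size alone and 0.090 without eTK control replicate 1 (-0.50 to 0.090 over all left out), RD29B -0.15 with a term per group and batch and -0.15 in batch 1 alone, LTI30 0.38 with library size alone, and KIN2, whose main value was 0.00, -0.40 with no batch term, -0.034 with the replicate block, -0.80 with a term per group and batch, -0.80 in batch 1 alone, and -0.26 to 0.23 over all libraries left out, 8 of them below 0. LTI30 for eTK against Col-0 was 0.15 in control in batch 1 alone and 0.0605 in heat with library size alone. Batch 2 against batch 1 in Col-0 control gave RD29B 0.059 without replicate 4 (-0.33 to 0.059 over all left out), and ERD10 0.038 with library size alone and -0.12 to 0.038 over all left out, above 0 without replicates 1 and 5. In eTK control it gave KIN1 -0.34 to 0.28 over all left out, below 0 without replicates 3 and 6, and line by batch gave KIN1 -0.61 to 0.019, above 0 without eTK control replicate 5. COR15A in Col-0, with 4 to 54 counts per library, is limited by depth.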
